A study of Mus musculus with 20 samples.

Results

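The nuclear genes for subunits of respiratory complexes II, III and IV, cytochrome c and the ATP synthase were followed in skeletal muscle of wild-type mice. The 43 genes were listed by name: 4 of complex II, 9 of complex III, the cytochrome c gene, 14 of complex IV and 15 of the ATP synthase with its inhibitor. They are 43 of 53465 gene identifiers in the deposited tables, and all 43 passed the filter on low counts that left 15709 genes. The list was set by complex and not by a cut on measured values, but earlier results of these data were known when it was chosen. It leaves out some subunits, whose values are given with the other genes of the pathway near the end. The 20 libraries, all of wild-type genotype (WT), form 4 groups of 5: females that were non-trained or trained, and likewise males. The labels used here do not give the muscle, the strain, the age, the kind or length of training, or the time of collection. Each library is a separate sample, but nothing in words ties it to a separate animal, so each p-value is set against a spread between libraries that may be technical. The questions asked were what training did to each complex in each sex, and whether muscle isoforms moved differently from the ubiquitous ones.

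Complex II oxidises succinate and passes the electrons to ubiquinone, complex III passes them on to cytochrome c, and complex IV uses them to reduce oxygen to water. Complexes III and IV pump protons across the inner mitochondrial membrane, and the ATP synthase lets the protons back through a rotating ring to make ATP. Complex II is built from nuclear genes alone, whereas complexes III, IV and the ATP synthase also hold subunits encoded in mitochondrial DNA. Some subunits of complex IV exist in a form found mainly in heart and skeletal muscle (COX6A2, COX7A1 and COX8B) beside a ubiquitous form (COX6A1, COX7A2 and COX8A). Endurance training is known to raise the mitochondrial content of muscle.

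Library totals ran from 22043145 to 38483572 counts, and genes of mitochondrial DNA took 11.2% to 15.85% of them. The 43 genes together took 0.975% to 1.70% of the counts and 1.93% to 3.16% of TPM, a level per transcript length scaled to the library. Fast muscle fibre markers, 9 contractile and related genes, summed to between 111486 and 172955 CPM (counts scaled to the library total) in each library, as skeletal muscle should show. Markers of cardiac muscle summed to at most 26.7 CPM and those of brown fat to at most 3.35 CPM.

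Per length, most of the 43 transcripts were abundant (mean over the 20 libraries ± SD here). Atp5b, the catalytic β subunit of the ATP synthase, stood highest at 2035 ± 254 TPM, and Atp5a1, the α subunit, followed at 1137 ± 116. In complex IV the order began with Ndufa4 at 967 ± 88.1, a subunit first assigned to complex I, and Cox4i1 at 959.8 ± 112. Next came Cox6a2 at 902 ± 149 and Cox5b at 889.8 ± 107. These 4 neighbours did not differ beyond their SDs. Complex III ran from Cyc1 (cytochrome c1) at 325 ± 38.7 to Uqcrq, a small accessory subunit, at 606 ± 90.8. In complex II, Sdha (the flavoprotein) stood at 409 ± 42.1 and Sdhb (the iron-sulphur protein) at 389.7 ± 82.3, within their SDs. The membrane anchor Sdhc stood at 349 ± 43.7 and its partner Sdhd at 206 ± 21.6. The medians over genes were 369 TPM for complex II, 479 for complex III, 701 for complex IV and 604 for the ATP synthase.

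Low in the list were 5 genes, while the other 38 lay between 206 and 2035 TPM. Cycs, the somatic cytochrome c, stood at 59.0 ± 8.14 TPM. Cox8a stood at 50.5 ± 9.71 TPM and Cox6a1 at 28.8 ± 6.84 TPM, both ubiquitous isoforms. Atpif1, the inhibitor that blocks ATP hydrolysis by the synthase, stood at 25.6 ± 4.54 TPM. Atp5g2 was lowest at 14.9 ± 6.0 TPM. Atp5g1, Atp5g2 and Atp5g3 encode the same mature c subunit of the rotating ring. Of the summed TPM of these 3 genes, Atp5g3 gave 54.1% ± 1.84, Atp5g1 44.8% ± 1.79 and Atp5g2 1.08% ± 0.42 (SD, n = 20 libraries). Several of the 43 genes have processed pseudogenes nearly identical to them, and reads that fit both are shared out by estimation, so levels of short transcripts such as Cox7c are uncertain.

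**Figure D1:**
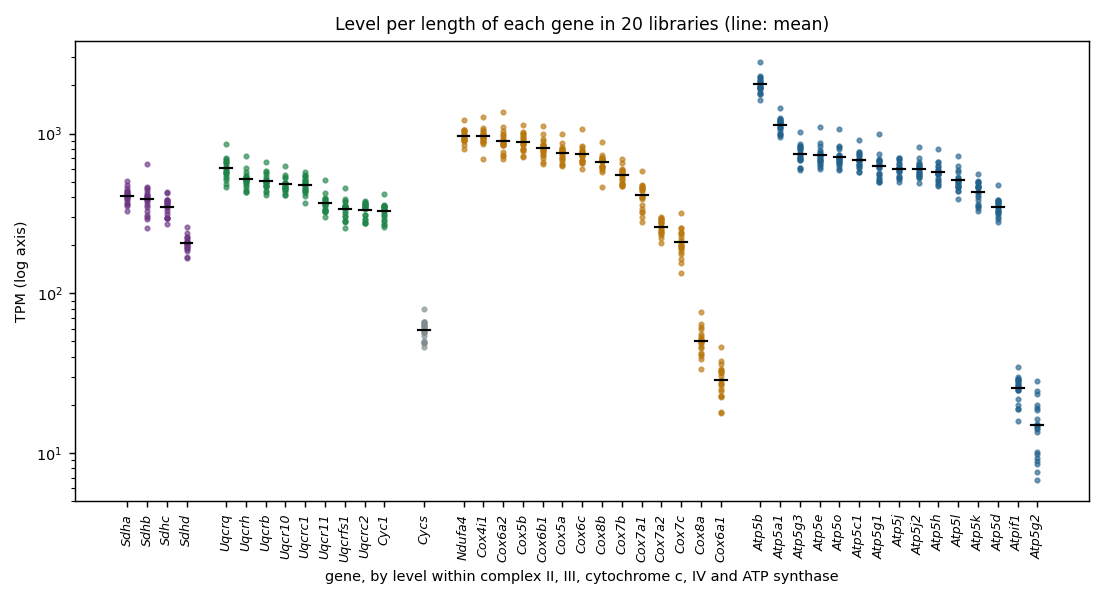
Level of each gene in TPM (log axis) in the 20 libraries, with genes ordered by mean within complex II, complex III, cytochrome c, complex IV and the ATP synthase. Points are libraries and lines are means: 38 genes have means from 206 to 2035 TPM, and Cycs, Cox8a, Cox6a1, Atpif1 and Atp5g2 have means from 14.9 to 59.0 TPM.

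The 43 genes went up and down together between libraries of the same group. In trained females, library 2 was the highest of its group for 40 of 43 genes, and in trained males library 3 was the lowest for 39. In non-trained females, library 3 was the lowest for 39 and library 1 the highest for 33, and in non-trained males library 1 was the highest for 35. The mean deviation of the 43 genes from their own means over the 20 libraries was 0.47 (log2) in trained female library 2, -0.31 in non-trained female library 3 and -0.29 in trained male library 3. Every complex took part: in trained female library 2 the mean deviation was 0.51 for complex II, 0.46 for complex III, 0.45 for complex IV and 0.48 for the ATP synthase. Trained male library 3 also had the highest macrophage marker sum, 583.6 CPM against 96.3 to 216 in the other trained males. Trained female library 2 had the highest slow fibre marker sum of all, 6214 CPM, and the lowest Schwann cell sum of its group, 79.5 CPM against 118 to 329. Its erythroid sum was 805.8 CPM, against 222 to 348 in the other trained females. Trained female library 5 had nearly the same slow fibre sum, 5985 CPM, at a mean deviation of 0.21. Library 3 of that group had the lowest, 496 CPM, at a mean deviation of 0.05. The part of these markers in the shift of the 43 genes was not tested. Because 4 of these libraries (non-trained female 3, trained female 2, non-trained male 1 and trained male 3) each held at least 35 of the 43 genes at the edge of its group, the results below are also given without them. That set was picked after the data were seen and by the values of these genes, so the values without them are a description. It takes out a low non-trained female, a high trained female, a high non-trained male and a low trained male. For most of the 43 genes this lowers the training change in females and raises it in males. The same step moves the male minus female difference down without training and up with training, and narrows the spread within groups.

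**Figure D2:**
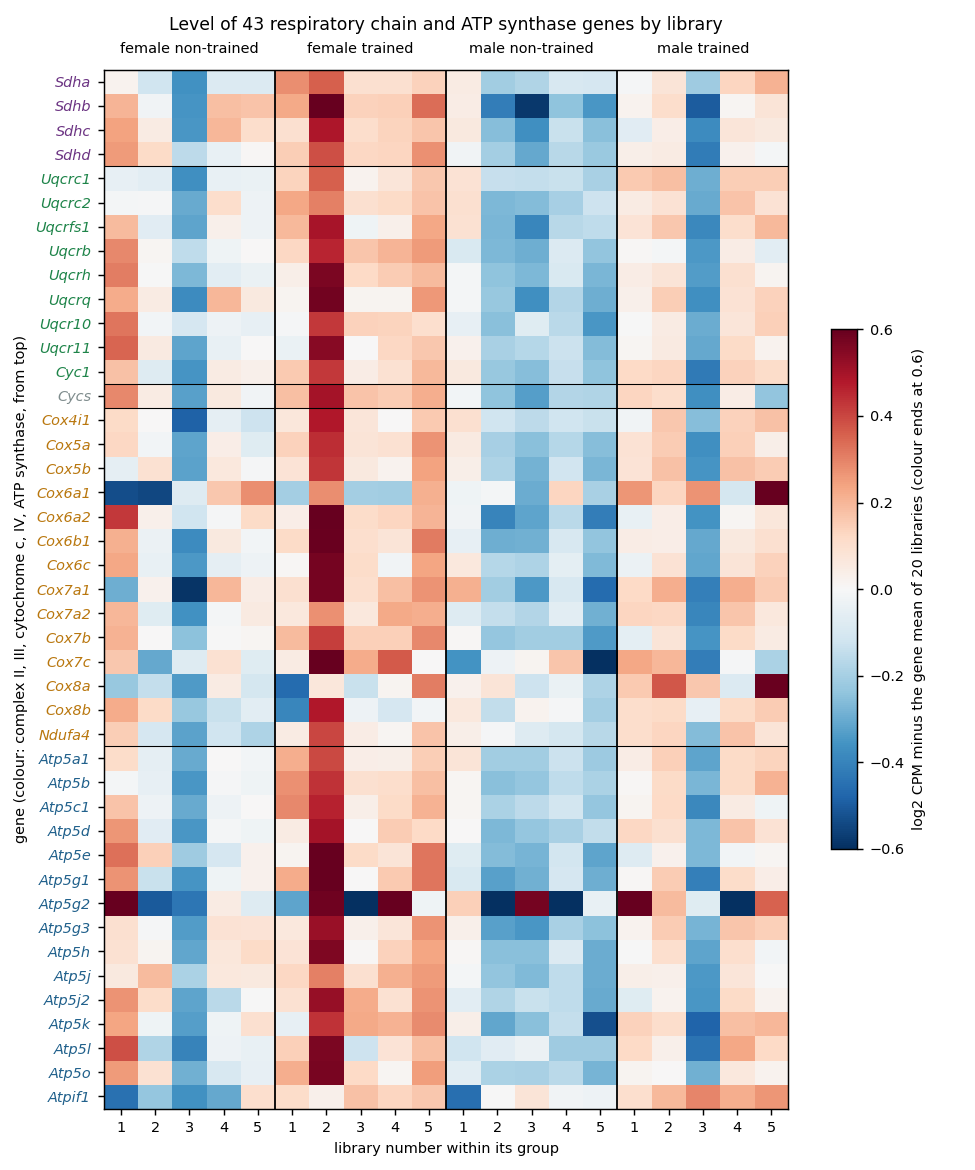
Heat map of the 43 genes (rows, blocks by complex) in the 20 libraries (columns, numbered within each group), coloured by log2 CPM minus the mean of that gene over all libraries, with colours ending at 0.6. Trained female library 2 is red and non-trained female library 3 and trained male library 3 are blue across nearly all rows, while Cox6a1, Cox8a and Atpif1 stand above their own mean in trained male library 3.

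After training, the transcripts of all 4 complexes and of cytochrome c stood slightly higher in both sexes, by about the same amount in each complex, and no single gene passed the threshold. The fitted log2 change was above 0 for 43 of 43 genes in females (median 0.23, or 16.9%) and for 43 of 43 in males (median 0.17, or 12.7%). Over all genes tested, 50.9% were above 0 in females, 49.9% in males and 50.6% in the mean of both. All 43 were above 0 in both sexes, against 28.4% of all genes, but genes that vary together between libraries do not give 43 separate observations. At an adjusted p of 0.05 (edgeR, Benjamini-Hochberg over 15709 genes), 0 of the 43 were called in females, in males or in the mean of both sexes, where the background was 0.0%, 0.0% and 0.0127%. At an unadjusted p under 0.05, 17 were higher in females (background 4.27%), 5 in males (2.24%) and 35 in the mean (4.69%), and none was lower. DESeq2 called 1 of the 43, Atpif1, in the mean, where it called 0.194% of the genes to which it gave an adjusted p, and limma-voom called 0. In bulk tissue, more mitochondria-rich fibres and more of these transcripts in each fibre cannot be told apart.

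Without the 4 libraries named above, 43 of 43 genes were still above 0 in the mean of both sexes, with a median of 0.18 and 35 higher at an unadjusted p under 0.05 (backgrounds in that fit 48.8% and 4.38%). The order of the sexes turned, in the direction that the choice of these libraries sets, so the turn is no test. In females 37 of 43 were then above 0 with a median of 0.07, and 4 were higher at an unadjusted p under 0.05 (backgrounds 48.3% and 3.74%). In males 43 of 43 were above 0 with a median of 0.29, and 39 were higher at that p (backgrounds 48.1% and 4.76%). No gene of the 43 was called in any of these 3. With single libraries left out, the median ran from 0.15 (without non-trained female library 3 or trained female library 2) to 0.28 in females and from 0.14 to 0.25 in males, and at least 41 of 43 genes stayed above 0 in every such fit.

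Complex II had a median log2 change of 0.19 in the mean of both sexes, from 0.14 for Sdhc to 0.28 for Sdhb. The flavoprotein gene Sdha (ENSMUSG00000021577, chr13:74322254-74350280, minus strand, GRCm38) had 782, 710.1, 599, 729 and 728 CPM in females without training and 936, 987, 824, 824 and 849 in those trained, and in males 797, 667, 679.5, 722 and 719 without training and 766, 812, 665, 843 and 889.9 with it. In CPM all 5 trained females stood above all 5 non-trained females. The male groups overlapped, with trained male library 3 below every non-trained male. In TPM the female groups overlapped too, with trained library 3 at 402 and non-trained library 5 at 411. Trained male library 3 was not the lowest male in TPM. The fitted change of Sdha was 0.32 (SE 0.09, adjusted p = 0.36) in females and 0.15 (SE 0.09, adjusted p = 0.99) in males, and 0.23 (SE 0.06, adjusted p = 0.30) in the mean. Libraries without overlap in this direction were seen for 0.637% of all genes in females. Sdhb, the iron-sulphur subunit, had 320.3, 274, 218, 316 and 313 CPM in females without training and 326, 484, 306, 307 and 351 in those trained, and in males 287, 208, 186, 235 and 219 without training and 283, 299, 197, 281 and 294 with it. Its groups overlapped in both sexes, and trained female library 2 stood far above its group. The mean change of Sdhb was 0.28 (SE 0.10, adjusted p = 0.42). Sdhc and Sdhd, the 2 membrane anchors, had mean changes of 0.14 (SE 0.08) and 0.15 (SE 0.07).

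Complex III had a median of 0.19 over 9 genes, from 0.14 for Uqcr11 to 0.22 for Uqcrfs1, the Rieske iron-sulphur protein. The core protein gene Uqcrc1 had 474, 469, 379.8, 476 and 478 CPM in females without training and 538, 629, 499, 517 and 548 in those trained, and in males 522, 446, 445, 447 and 429 without training and 548, 556, 401, 544 and 543 with it. Trained females did not overlap non-trained females in CPM, but in TPM they did (lowest trained 444, highest non-trained 497). In males only library 3 of the trained group kept the groups from parting. The change of Uqcrc1 was 0.26 (SE 0.09) in females, 0.18 (SE 0.09) in males and 0.22 (SE 0.07, adjusted p = 0.37) in the mean. The second core protein gene, Uqcrc2, had 384, 385, 314, 417 and 379 CPM in females without training and 455, 477, 414, 419.8 and 436 in those trained, and in males 414, 322, 324, 337 and 356 without training and 400.4, 412, 314, 436 and 412 with it. Its highest non-trained female value lay just above its lowest trained female value, and the male groups overlapped. The mean change of Uqcrc2 was 0.20 (SE 0.07, adjusted p = 0.38). Cyc1 (cytochrome c1) had 0.20 (SE 0.08), and the small subunits Uqcrb, Uqcrh, Uqcrq and Uqcr10 had 0.17, 0.19, 0.19 and 0.15. Cycs, the mobile carrier between complexes III and IV, had 0.18 (SE 0.08, adjusted p = 0.50), with 119 ± 17.6 against 139 ± 14.7 CPM in females and 103 ± 8.31 against 112.5 ± 16.9 CPM in males (SD, n = 5 each).

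Complex IV had a median of 0.21 over 14 genes. The 8 genes without a tissue-specific partner in the list had the same median, 0.21, and ran from 0.18 for Cox6c to 0.23 for Cox6b1. Cox7b, an X-linked subunit, had 234, 204, 171, 203 and 205 CPM in females without training and 232, 271, 224, 224 and 248 in those trained, and in males 204, 173, 176, 176 and 161 without training and 195, 214, 159, 220.1 and 210 with it. Trained females 1, 3 and 4 lay below the highest non-trained female, library 1, and the male groups overlapped too. The mean change of Cox7b was 0.20 (SE 0.07, adjusted p = 0.38). Cox5a, a subunit on the matrix side of the complex, had 323, 293, 238, 305 and 282 CPM in females without training and 326, 403, 313, 316 and 358 in those trained, and in males 308, 258, 249, 264 and 249 without training and 315, 329, 229.6, 327 and 304 with it. Again a few libraries made the groups overlap, and trained male library 3 was the lowest of all 20 in CPM. The mean change of Cox5a was 0.22 (SE 0.07, adjusted p = 0.39). Cox4i1 and Cox5b had 0.20 (SE 0.08) and 0.22 (SE 0.08), and Ndufa4 had 0.18 (SE 0.07).

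The ATP synthase had a median of 0.19 over 15 genes, from 0.15 for Atp5g2 to 0.33 for Atpif1. Atp5b, the catalytic subunit, had 2051, 2002, 1623, 2055 and 2033 CPM in females without training and 2505, 2792, 2209, 2223 and 2342 in those trained, and in males 2085, 1737, 1763, 1863 and 1813 without training and 2077, 2243, 1708, 2236 and 2387 with it. In CPM the 5 trained females stood above the 5 non-trained females, and in males library 3 of the trained group was the lowest of the 10. In TPM the female groups overlapped (lowest trained 1973, highest non-trained 2093), and that male library was not the lowest. The change of Atp5b was 0.31 (SE 0.10, adjusted p = 0.43) in females and 0.20 (SE 0.10, adjusted p = 0.99) in males. In the mean it was 0.25 (SE 0.07, adjusted p = 0.30). Atpif1, whose product keeps the enzyme from running backwards, was a low gene with the largest mean change of the 43. It had 5.62, 6.54, 5.96, 6.19 and 8.23 CPM in females without training and 8.29, 7.84, 8.66, 8.40 and 8.58 in those trained, and in males 5.602, 7.65, 8.10, 7.56 and 7.502 without training and 8.23, 8.79, 9.398, 8.93 and 9.21 with it. In males the 5 trained libraries stood above the 5 non-trained ones in CPM (background 0.535%), and in females only non-trained library 5 reached into the trained range. In TPM the male groups overlapped, with the lowest trained male at 26.8 and the highest non-trained male at 29.2. Unlike nearly all others, Atpif1 was highest in trained male library 3, the library in which 39 of the 43 genes were lowest of their group. The mean change was 0.33 (SE 0.08, adjusted p = 0.28 in edgeR and 0.033 in DESeq2), and the adjusted p in edgeR ran from 0.10 to 0.52 with single libraries left out.

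Among the other genes of the enzyme, the F1 subunits Atp5a1 (α) and Atp5c1 (γ) had mean changes of 0.19 (SE 0.07) and 0.18 (SE 0.07). Atp5d (δ) and Atp5e (ε) had 0.21 and 0.17. In the c ring, Atp5g1 had 0.27 (SE 0.09) and Atp5g3 0.24 (SE 0.08), and Atp5g2 had 0.15 with an SE of 0.25. The peripheral stalk genes Atp5h, Atp5j and Atp5o had 0.18, 0.16 and 0.20. The membrane subunits Atp5j2, Atp5k and Atp5l had 0.19, 0.25 and 0.19. The SEs of these genes were 0.06 to 0.10 except for that of Atp5g2, and none stood apart from the median of the enzyme by more than 1 SE.

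**Figure D3:**
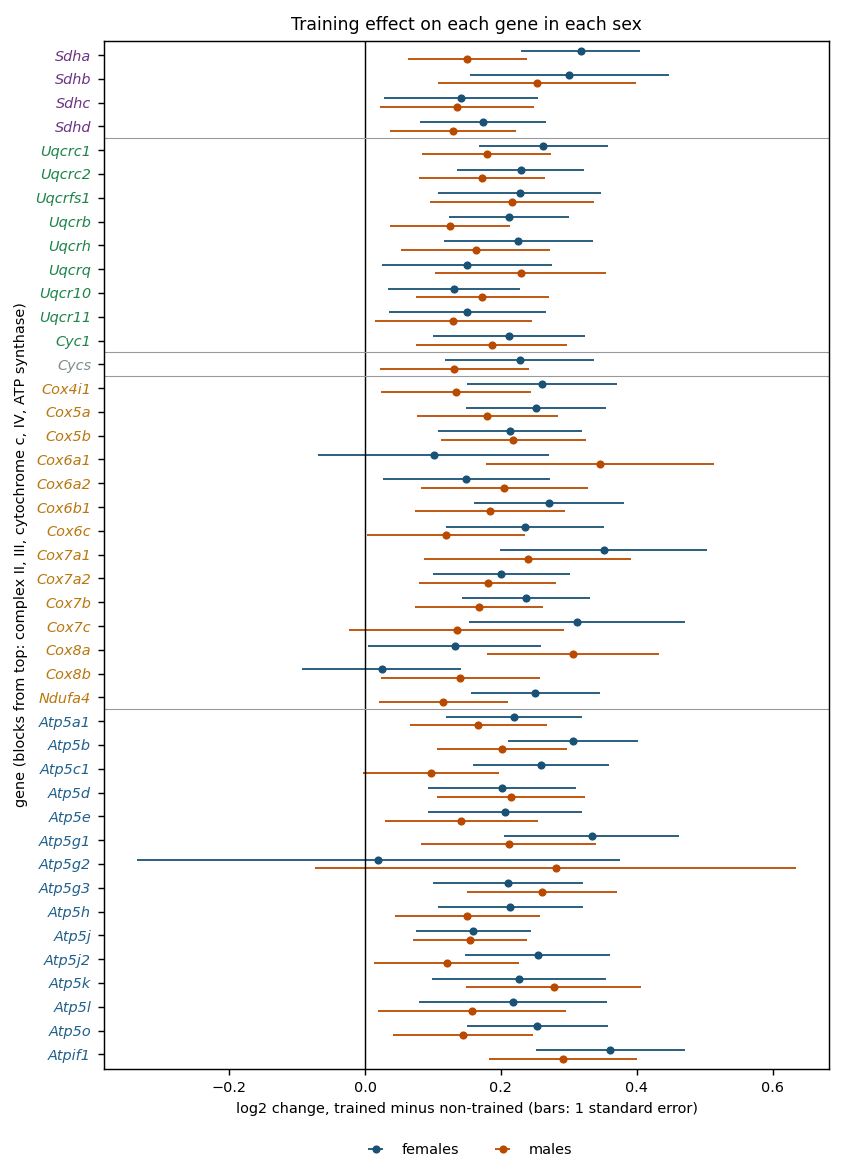
Training effect on each gene as the fitted log2 change, trained minus non-trained, in females (blue) and males (orange), with bars of 1 standard error. All 86 points lie to the right of 0, the medians are 0.23 in females and 0.17 in males, and the 5 blocks of complexes lie at about the same distance from 0.

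The training effect did not differ detectably between the sexes. The male effect was smaller than the female effect for 32 of 43 genes, with a median difference of -0.06 (background 49.9% below 0), and 0 of 43 genes passed the test of the interaction (background 0.0%, edgeR, DESeq2 and limma-voom) or an unadjusted p under 0.05 (backgrounds 2.03% and 2.15%). The difference was -0.17 (SE 0.12) for Sdha and 0.25 (SE 0.24) for Cox6a1, so differences of the size of the training effect itself could not be resolved. The count of 32 rested on single libraries. It was 15 without non-trained female library 3, 17 without trained female library 2, 20 without non-trained male library 1, 16 without trained male library 3 and 2 without all 4. In that last fit the male effect was larger for 41 of 43 genes, with a median difference of 0.21 (background 51.4%). At an unadjusted p under 0.05, 18 of 43 were higher (background 4.18%), with 0 called. The choice of those 4 libraries sets this direction, so these counts are no test of the interaction.

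Summed markers of other cell types also differed between trained and non-trained groups. The Schwann cell sum had medians of 116 and 303.5 CPM in females without and with training, against 142.5 and 115 CPM in males. Of its 6 genes, 5 were higher in females at an unadjusted p under 0.05 (background 4.27%). All 6 had an interaction below 0 at that p (background 2.15%), with 0 called. The erythroid sum had medians of 262.3 and 268.1 CPM in females and 485 and 316 CPM in males, where non-trained library 4 stood at 3750 CPM and library 2 at 1179, against 239.1 to 364.4 in trained males. Its 5 genes were all lower in males after training at an unadjusted p under 0.05, against 324 of 15709 genes. Their log2 changes in males ran from -2.23 to -1.93, and all 5 were above 0 in females (median 0.37). The interaction of all 5 was below 0 at that p (median -2.37, background 2.15%), with 0 called in each. The white fat sum had medians of 191 and 317 CPM in females and 229.5 and 153 CPM in males, where trained library 5 stood at 465.5 CPM. Of its 6 genes, 5 were above 0 in females and Lep was below (-0.65). Among those 5, 3 were higher at an unadjusted p under 0.05 (background 4.27%). In males the 6 genes disagreed, with 2 above 0 and 4 below (log2 changes from -1.71 to 1.025). In each sex 0 were called. The slow fibre sum had medians of 4200 and 4090 CPM in females and 690.4 and 1314 CPM in males, and all 8 of its genes had changes above 0 in males (median 0.95) and in females (median 0.15), with 0 called. Slow and fast oxidative fibres hold more mitochondria than fast glycolytic ones. The part of any of these markers in the training values was not tested.

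The muscle and ubiquitous isoforms of complex IV were then set side by side. The 210 to 250 bases next to the annotated start of each gene are shown for the 5 isoform genes found in the RefSeq promoter table (build GRCm38.p6), so that the upstream letters of paired forms can be compared, and for Sdha as the complex II gene with the smallest p for training. Capitals mark matches of NRF1 (GCGCA and GCGC with any base between), ERR (TCAAGGTCA), ETS (CCGGAAGT), YY1 (AAGATGGC), MEF2 (CTA and TAG with any 4 bases between), MYOD E-box (CAGCTG) or TATA box (TATAAA) letters on either strand, and GC box letters (GGGCGG) are not capitalised. The windows lie at chr7:140900447-140900696 (minus strand) for Cox8b and chr19:7217617-7217866 (minus strand) for Cox8a. They lie at chr7:30183921-30184143 (plus strand) for Cox7a1, chr9:79759879-79760103 (minus strand) for Cox7a2, chr5:115348982-115349208 (minus strand) for Cox6a1 and chr13:74350281-74350490 (minus strand) for Sdha.
Cox8b: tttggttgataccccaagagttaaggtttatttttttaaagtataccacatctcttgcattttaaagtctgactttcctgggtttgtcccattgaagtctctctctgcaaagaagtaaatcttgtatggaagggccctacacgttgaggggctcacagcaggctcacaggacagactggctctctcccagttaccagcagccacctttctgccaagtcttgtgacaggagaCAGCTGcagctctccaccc
Cox8a: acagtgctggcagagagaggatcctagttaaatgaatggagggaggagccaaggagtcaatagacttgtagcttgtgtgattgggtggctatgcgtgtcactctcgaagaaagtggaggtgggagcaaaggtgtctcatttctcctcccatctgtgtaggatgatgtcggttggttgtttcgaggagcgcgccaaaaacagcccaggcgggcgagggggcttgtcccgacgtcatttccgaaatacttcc
Cox7a1: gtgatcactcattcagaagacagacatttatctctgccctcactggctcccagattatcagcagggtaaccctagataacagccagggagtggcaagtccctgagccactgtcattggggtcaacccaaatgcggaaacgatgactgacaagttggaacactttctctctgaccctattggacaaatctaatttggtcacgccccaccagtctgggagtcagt
Cox7a2: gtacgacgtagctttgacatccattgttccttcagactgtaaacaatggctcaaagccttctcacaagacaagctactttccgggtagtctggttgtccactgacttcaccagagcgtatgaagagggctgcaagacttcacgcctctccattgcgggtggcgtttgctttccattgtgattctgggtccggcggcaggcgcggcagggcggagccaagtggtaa
Cox6a1: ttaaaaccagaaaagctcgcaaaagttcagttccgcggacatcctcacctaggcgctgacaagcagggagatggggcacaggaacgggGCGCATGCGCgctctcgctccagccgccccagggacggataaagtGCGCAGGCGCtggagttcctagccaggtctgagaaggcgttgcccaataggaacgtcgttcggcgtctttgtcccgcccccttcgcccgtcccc
Sdha: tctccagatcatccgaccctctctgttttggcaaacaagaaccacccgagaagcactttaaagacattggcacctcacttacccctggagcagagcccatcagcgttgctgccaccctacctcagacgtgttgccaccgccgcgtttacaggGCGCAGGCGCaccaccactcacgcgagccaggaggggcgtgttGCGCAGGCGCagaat

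Of the 6 stretches, those of Cox6a1 and Sdha hold 2 NRF1 matches each, that of Cox8b holds an E-box match, and those of Cox8a, Cox7a1 and Cox7a2 hold none of the 7 patterns. Past or across the end of the stretches shown, the full windows also hold ETS letters for Cox8a and TATA box letters for Cox8b. Promoter windows of 300 bases, 250 before and 50 after the RefSeq start, were found for 34 of the 43 genes, and a gene was counted where any of its windows held a match. NRF1 letters were present for 11 of the 34 (32.4%) against 5.19% of 27025 genes: Sdha, Sdhd, Uqcrc1, Cox6a1, Atpif1 and 6 further ATP synthase genes. The ERR letters were present for Sdhd and Atp5g3 (5.88% against 0.466%), and their shorter core AAGGTCA, which the ERR letters contain, for 6 genes (17.6% against 5.38%). ETS letters were present for 4 genes (11.8% against 4.31%) and YY1 letters for 2 (5.88% against 3.19%). GC box letters were present for 32.4% against 38.2%, MEF2 letters for 2.94% against 4.23%, E-box letters for 8.82% against 18.3% and TATA box letters for 5.88% against 15.7%. A match describes letters in a window, and a window with no match says nothing of a factor.

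Cox6a2 far exceeded Cox6a1 in every library. Cox6a2 (chr7:128205435-128206387, minus strand) had 1094, 858, 848, 910.1 and 1031 TPM in females without training and 847, 1369, 891, 978 and 991 in those trained, and in males 860, 696, 721, 849 and 733 without training and 864, 910.3, 771, 868 and 945 with it. Cox6a1 (chr5:115345642-115348981, minus strand) had 17.7, 18.1, 27.6, 32.04 and 36.1 TPM in females without training and 22.6, 32.96, 22.6, 24.3 and 31.5 in those trained, and in males 27.01, 28.4, 22.8, 32.7 and 26.6 without training and 33.7, 30.5, 37.4, 25.1 and 45.8 with it. The muscle form made up 97.3% ± 0.83 of the pair in females without training and 97.4% ± 0.29 in those trained, and in males 96.5% ± 0.39 without training and 96.2% ± 0.81 with it (SD, n = 5 libraries each).

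Cox8b exceeded Cox8a in the same way. Cox8b (chr7:140898945-140900446, minus strand) had 699, 669, 578, 614 and 669 TPM in females without training and 462, 882, 594, 613 and 624 in those trained, and in males 670.2, 607, 668, 694 and 623 without training and 705, 704, 700.4, 684 and 737 with it. Cox8a (chr19:7215153-7217616, minus strand) had 38.8, 42.4, 40.5, 52.7 and 49.2 TPM in females without training and 33.4, 50.3, 41.9, 50.4 and 59.3 in those trained, and in males 49.6, 53.7, 45.8, 51.5 and 47.9 without training and 55.4, 63.9, 61.6, 45.3 and 75.9 with it. The muscle form made up 93.5% ± 0.99, 93.0% ± 1.22, 92.9% ± 0.64 and 92.2% ± 1.17 of the pair in the groups taken in the same order.

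Cox7a1 and Cox7a2 were much closer to each other. Cox7a1 (chr7:30184144-30186078, plus strand) had 299, 388, 278, 477 and 446 TPM in females without training and 399, 579.7, 400.3, 457 and 471 in those trained, and in males 456, 357, 321, 399.8 and 321 without training and 439, 468, 336, 455 and 453 with it. Cox7a2 (chr9:79755361-79759878, minus strand) had 277, 237, 205, 265 and 290.2 TPM in females without training and 256, 293, 250.1, 301 and 298 in those trained, and in males 246, 242, 231, 259 and 238 without training and 278, 282, 222, 287 and 274 with it. Cox7a1 made up 59.3% ± 4.77, 62.1% ± 2.46, 60.2% ± 2.97 and 61.5% ± 0.91 of the pair in the same order, and the lowest share was 51.9% in non-trained female library 1.

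No shift between muscle and ubiquitous isoforms with training was detected. In the mean of both sexes the edgeR change was 0.18 (SE 0.09) for Cox6a2 and 0.22 (SE 0.12) for Cox6a1, 0.30 (SE 0.11) for Cox7a1 and 0.19 (SE 0.07) for Cox7a2, and 0.08 (SE 0.08) for Cox8b and 0.22 (SE 0.09) for Cox8a. Cox8b had the smallest mean change of the 43 genes and Cox7a1 the second largest. In females Cox8b had 0.02 (SE 0.12), and in males Cox8a had 0.31 (SE 0.13, adjusted p = 0.99). The log2 TPM ratio of muscle to ubiquitous form differed between trained and non-trained libraries by -0.06 for Cox6a2/Cox6a1 (exact permutation p = 0.70), 0.12 for Cox7a1/Cox7a2 (exact p = 0.16) and -0.13 for Cox8b/Cox8a (exact p = 0.21). These were two-sided tests over the 10 trained and 10 non-trained libraries with labels permuted within each sex, and adjusted p was 0.59 or more for each of the 9 training tests among 12 in the family. The Cox7a1/Cox7a2 ratio was above the non-trained mean of its sex in 9 of 10 trained libraries, and the Cox8b/Cox8a ratio below it in 8 of 10.

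The Cox6a2/Cox6a1 ratio was lower in males than in females. The log2 ratios were 5.95, 5.57, 4.94, 4.83 and 4.83 in females without training and 5.23, 5.38, 5.30, 5.33 and 4.98 in those trained, and in males 4.99, 4.61, 4.98, 4.70 and 4.79 without training and 4.68, 4.90, 4.37, 5.11 and 4.37 with it. Each male library stood below the female mean of its training state. The male minus female difference was -0.48 (exact two-sided permutation p = 0.0024, adjusted p = 0.029 over the 12 tests), in 10 of 10 male libraries. The adjusted p ran from 0.013 to 0.086 with single libraries left out and missed the threshold in 8 of 20 such fits, and it was 0.093 without the 4 libraries together, at a difference of -0.485 (log2). The ratios of the other 2 pairs differed between the sexes by -0.16 for Cox8b/Cox8a (exact p = 0.12, adjusted p = 0.59) and by 0.01 for Cox7a1/Cox7a2 (exact p = 0.93, adjusted p = 0.97). All these ratios are taken over the whole tissue. Macrophage markers were also higher in males, at 96.3 to 583.6 CPM against 34.0 to 105 CPM in females. The part of other cell types in the Cox6a2/Cox6a1 ratio was not tested.

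**Figure D4:**
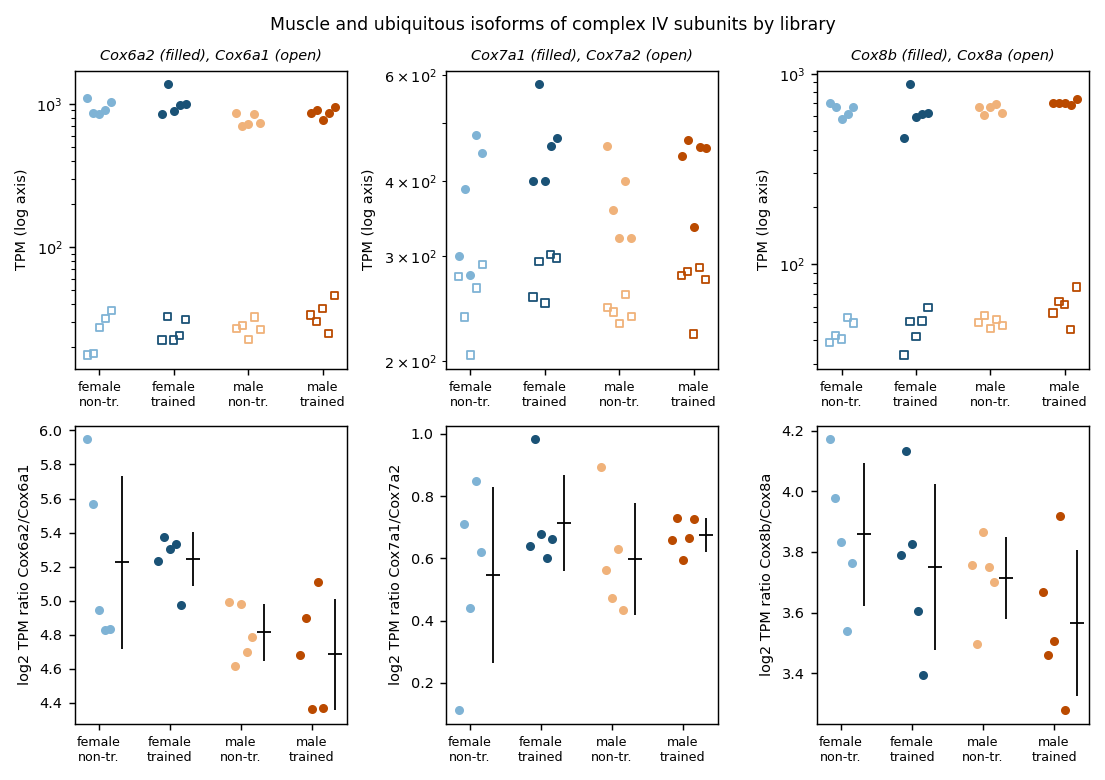
Muscle (filled circles) and ubiquitous (open squares) isoforms in TPM on a log axis (top) and the log2 ratio of each pair (bottom) in each library, by group, with the group mean and SD as a black dash and bar. Filled points lie far above open ones for Cox6a2 and Cox8b and close above them for Cox7a1, and the Cox6a2/Cox6a1 ratio is lower in males (means of 4.82 and 4.68) than in females (5.22 and 5.24).

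Most of the 43 transcripts stood lower in males than in females, in either training state. The male minus female log2 difference was below 0 for 36 of 43 genes without training (median -0.14, background 49.2% below 0) and for 38 of 43 with training (median -0.18, background 49.5%), and 34 of 43 were below 0 in both against 34.5% of all genes. The medians by complex without training were -0.24 for complex II, -0.17 for complex III, -0.10 for complex IV and -0.16 for the ATP synthase, and with training -0.26, -0.16, -0.16 and -0.18. Scaling moved these sizes: by library size alone, 35 and 38 of 43 were below 0, with medians of -0.08 and -0.12. Of all genes called, 60.3% without training and 60.5% with training were higher in males, and 75.0% and 79.6% by library size alone. No gene of the 43 was called without training, where 5.21% of all genes were called (edgeR), and DESeq2 called 1, Cox6a2, where it called 9.33% of genes, so its share of the 43 was below the background. At an unadjusted p under 0.05, 8 were lower (background 10.1%) and 0 higher (background 11.6%). The share lower was above its background and the share higher below it, in genes that vary together between libraries. With training 1 gene, Uqcrb, was called lower (background 2.22%, and 5.6% in either direction). At an unadjusted p under 0.05, 16 were lower and 1, Cox8a, higher (backgrounds 9.31% and 11.4%). In CPM 7 had male libraries all below the female ones (background 3.46%).

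Uqcrb, a small subunit of complex III named for ubiquinone binding, had 196, 162, 145, 158 and 161 CPM in females without training and 175, 220.1, 179.8, 185 and 191 in those trained, and in males 151, 133, 131, 152 and 136 without training and 161, 159, 126, 166 and 154 with it. All 5 trained males lay below all 5 trained females, whereas without training the ranges overlapped. The trained difference was -0.31 (SE 0.09, adjusted p = 0.043), with 153 ± 15.6 CPM in males and 190.2 ± 17.8 in females (SD, n = 5 each). The call was lost in 14 of 20 fits with a single library left out (adjusted p from 0.021 to 0.12). It was also lost with library size alone (0.084), with no low-count filter (0.071), with only the groups compared in the fit (0.055) and without the 4 libraries together (0.26). The other 6 genes without overlap in CPM were Sdhb, Sdhc, Sdhd, Cycs, Cox7b and Atp5j, with differences from -0.39 to -0.23. Sdhd had the next smallest p (-0.27, SE 0.09, adjusted p = 0.095). In TPM the trained males and females overlapped for all 6. Uqcrb parted only narrowly in TPM, at 505.2 in the lowest trained female and 504.9 in the highest trained male.

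Without training, the largest difference was that of Cox6a2, which had 499, 379.6, 342, 370.3 and 403 CPM in females without training and 382, 591, 402, 407 and 429 in those trained, and in males 366, 283, 299, 332 and 279 without training and 361, 382, 291, 376 and 389.6 with it. Its non-trained male range ran into the female range through library 1. The difference was -0.35 (SE 0.12, adjusted p = 0.095 in edgeR and 0.046 in DESeq2), and among the edgeR fits with a single library left out it passed only without trained female library 2 (0.048). Without the 4 libraries together the difference of Cox6a2 was -0.48 (adjusted p = 0.0058 in edgeR). Atp5j (coupling factor 6) had a difference of -0.23 (SE 0.08, adjusted p = 0.12), which passed without non-trained female library 3 (0.048). Without the 4 together it was -0.34 (adjusted p = 0.0041). The choice of those 4 libraries widens the non-trained difference of both genes, so the values without them are no test. A few genes stood the other way: Atpif1 had 0.16 (SE 0.11) and Cox8a 0.10 (SE 0.13) without training, and Cox8a had 0.28 (SE 0.13, adjusted p = 0.21) and Cox6a1 0.28 (SE 0.17, adjusted p = 0.37) with training. Sdha, Uqcrc1 and Cox4i1 had differences of 0.01, 0.01 and 0.01 without training, with SEs of 0.09, 0.09 and 0.11.

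The sex differences depended on which libraries were in the fit. Without the 4 libraries together, 40 of 43 genes were below 0 without training, with a median of -0.28 and 23 called, all lower (backgrounds in that fit 50.5% below 0, 7.71% called and 3.66% called lower). In the trained mice 26 of 43 were below 0, with a median of -0.02 and 0 called (backgrounds 49.0% and 2.04%). Since the libraries were picked by these genes, the 23 calls are no test of sex. Markers also differed between the sexes. The slow fibre sum ran from 496 to 6214 CPM in females and from 355 to 2015 CPM in males. Of its 8 genes, 6 were called lower without training and 1 with training (backgrounds 2.07% and 2.22%). The macrophage sum ran from 34.0 to 105 CPM in females and from 96.3 to 583.6 CPM in males. Of its 6 genes, 4 were called higher without training and 5 with training, against 493 and 532 of all 15709 genes. The 5 erythroid genes were all higher in non-trained males at an unadjusted p under 0.05 (median 2.03, background 11.6%), with 2 called. The 6 Schwann cell genes were all lower in trained males at that p (median -1.06, background 9.31%), with 0 called. The part of these markers in the sex differences was not tested.

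**Figure D5:**
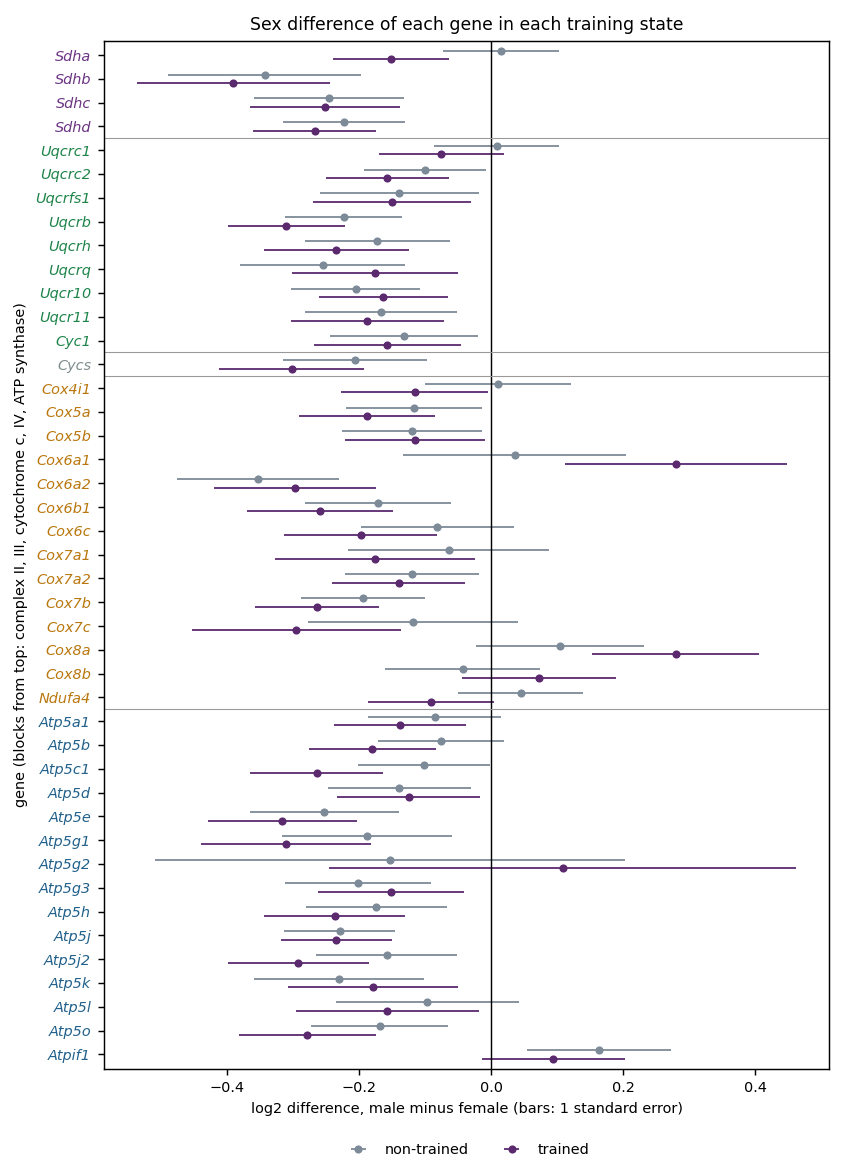
Male minus female log2 difference of each gene without training (grey) and with training (purple), with bars of 1 standard error. Most points lie to the left of 0, with medians of -0.14 and -0.18, and Cox6a1, Cox8a and Atpif1 lie to its right in both training states.

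Other genes of the same pathway were read for comparison in the mean training effect. Over all genes tested, 50.6% were above 0 and 0.0127% were called in that effect, so a count of 0 called sets no list apart. The 6 subunits of complexes III to V encoded in mitochondrial DNA were all above 0 (median 0.13), with mt-Co2 at 0.17 (SE 0.07), mt-Atp8 at 0.23 (SE 0.10) and mt-Co1 at 0.14 (SE 0.09), and 0 called. Of 36 nuclear complex I subunits, 36 were above 0 (median 0.16) and 0 were called; Ndufs1 had 0.21 (SE 0.06), Ndufs8 0.21 (SE 0.07) and Ndufa9 0.21 (SE 0.07). Among subunits outside the list, Atp5f1 (subunit b of the peripheral stalk) had 0.19 (SE 0.07) at 656 ± 90.9 TPM (SD, n = 20). The alternative isoforms Cox4i2 and Cox6b2 stood at 2.35 and 0.9995 TPM, and Cox8c at 0 in all libraries.

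Assembly factors and regulators had less uniform signs. Of 39 assembly factors tested, 30 were above 0 with a median of 0.07, and 0 were called (backgrounds 50.6% and 0.0127%). Those with the smallest p were Cox20 at 0.32 (SE 0.09, adjusted p = 0.30), Cox15, a heme A synthesis enzyme, at 0.16 (SE 0.04, adjusted p = 0.30), and Taco1, an activator of mitochondrial translation, at 0.23 (SE 0.07, adjusted p = 0.32). Of 15 transcriptional regulators, 7 were above 0 and 0 were called, against the same backgrounds. Ppara, a nuclear receptor for fatty acid use, had 0.48 (SE 0.21), the coactivator Ppargc1a had 0.51 (SE 0.23), and its relative Ppargc1b had -0.28 (SE 0.13). In the sex comparisons, 2 of the 103 genes tested outside the 43, from 5 lists (other isoforms and subunits, assembly factors, regulators, complex I and mitochondrial DNA subunits), were called lower in males without training (background 2.07%) and 1 with training (2.22%), shares near or below the background. Cox19, a copper-related assembly factor, had -0.34 (SE 0.10, adjusted p = 0.043) and the complex I subunit Ndufa11 -0.36 (SE 0.10, adjusted p = 0.035) without training. Ndufs8, another complex I subunit, had -0.34 (SE 0.09, adjusted p = 0.038) with training. By sign, complex I subunits were below 0 for 34 of 36 without training (median -0.16) and 35 of 36 with it (median -0.21). The backgrounds were 49.2% and 49.5%. Assembly factors were below 0 for 31 and 30 of 39, and regulators for 14 and 11 of 15. Mitochondrial DNA subunits were below 0 for 4 and 5 of 6, and other isoforms and subunits for 5 and 6 of 7.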

How the data were processed

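Poly(A) RNA from muscle of wild-type mice was sequenced in 20 libraries (directional library kit, per the labels' protocols). Expected counts per gene were deposited by the authors, together with TPM and FPKM values that the authors derived from them; FPKM was not used. The submitters' processing notes name RSEM 1.3.1 and STAR 2.5.1, the trimmers cutadapt and Trim Galore, the build GRCm38, and limma and edgeR, with no roles. No label says whether counting used strand, so overlapping antisense genes cannot be told apart. Gene names and coordinates came from GENCODE M21 (53360 of 53465 identifiers matched).

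Expected counts were rounded, filtered (filterByExpr, minimum count 10), scaled by TMM and tested in 1 edgeR 4.0.16 quasi-likelihood fit (R 4.3.3) over 4 groups of 5, with Benjamini-Hochberg adjustment over 15709 genes and a threshold of 0.05. Fold changes are log2. CPM use TMM-scaled library sizes, and depths ran from 22043145 to 38483572 counts. Overlap between groups of libraries was judged in CPM unless TPM is named. Isoform ratios are log2 TPM ratios tested by exact permutation. Alternatives were DESeq2 1.42.0, limma-voom (limma 3.58.1), other scalings and filters, the compared groups alone and each library left out. Leaving out 4 libraries together was chosen after seeing the data.

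The 43 genes and all other lists were chosen with earlier results of these data known. Any of the 43 could be named. Values in every library are given for the 6 isoform genes, for the 2 genes per complex with the smallest p for mean training and for Uqcrb, the gene of the 43 that was called, and other pathway lists give up to 3 genes by smallest p plus any past the threshold. The fit was tested on simulated data of the female groups alone, in which genes varied independently (14523 genes, 3 false calls). The remaining samples were left out and are not analysed here.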

Additional observations from a re-analysis of the deposited data

Results flagged for a closer look

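Within each group of 5 libraries, a value was marked where its gap to the nearest other library exceeded 0.71 of the range of the group, which chance does in about 1 in 20 groups. Of 184 groups (genes and isoform ratios), 40 were marked, and the genes share libraries, so the marks are not separate events. Values are given with the nearest other library of the same group in brackets.

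Trained male library 3 was set apart as the lowest of its group for 21 genes. In complex II it held Sdhb at 197 CPM (nearest 281) and Sdhd at 121 CPM (nearest 160.3). In complex III it held Uqcrc1 at 401 CPM (nearest 543), Uqcrc2 at 314 CPM (nearest 400.4), Uqcrfs1 at 224 CPM (nearest 309.8), Uqcrh at 126 CPM (nearest 161), Uqcrq at 109 CPM (nearest 144), Uqcr11 at 76.2 CPM (nearest 95.1) and Cyc1 at 183 CPM (nearest 266). In complex IV it held Cox5a at 229.6 CPM (nearest 304), Cox5b at 147 CPM (nearest 199), Cox6b1 at 158 CPM (nearest 201), Cox7a1 at 68.8 CPM (nearest 99.5), Cox7a2 at 59.4 CPM (nearest 81.4), Cox8b at 128 CPM (nearest 142) and Ndufa4 at 213 CPM (nearest 269.6). In the ATP synthase it held Atp5a1 at 1424 CPM (nearest 1832), Atp5d at 167 CPM (nearest 213), Atp5j at 158 CPM (nearest 200), Atp5k at 64.7 CPM (nearest 97.2) and Atp5o at 244 CPM (nearest 298).

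Trained female library 2 was set apart as the highest of its group for 7 genes. In complex II it held Sdhb at 484 CPM (nearest 351) and Sdhc at 307 CPM (nearest 246). In complex III it held Uqcrh at 234.9 CPM (nearest 181). For cytochrome c it held Cycs at 165 CPM (nearest 136). In complex IV it held Cox4i1 at 538 CPM (nearest 429) and Cox6a2 at 591 CPM (nearest 429). In the ATP synthase it held Atp5d at 284 CPM (nearest 223).

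Non-trained male library 1 was set apart as the highest of its group for 4 genes. In complex III it held Uqcrc1 at 522 CPM (nearest 447). In complex IV it held Cox4i1 at 411 CPM (nearest 355) and Cox5a at 308 CPM (nearest 264). In the ATP synthase it held Atp5a1 at 1872 CPM (nearest 1622).

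Non-trained female library 3 was set apart as the lowest of its group for 4 genes. In complex III it held Uqcrc1 at 379.8 CPM (nearest 469). In the ATP synthase it held Atp5b at 1623 CPM (nearest 2002), Atp5g3 at 260.1 CPM (nearest 326) and Atp5h at 142 CPM (nearest 179).

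Non-trained female library 1 was set apart as the highest of its group for 2 genes. In complex III it held Uqcr10 at 152 CPM (nearest 119.8). In the ATP synthase it held Atp5g2 at 11.6 CPM (nearest 6.19).

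Non-trained male library 1 was set apart as the lowest of its group for 1 gene. In the ATP synthase it held Atpif1 at 5.6 CPM (nearest 7.5).

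Among the isoform ratios, trained female library 2 had a log2 Cox7a1/Cox7a2 ratio of 0.98, against 0.68 in the nearest other trained female. Atpif1 was low in non-trained male library 1, where 35 of the 43 genes were the highest of their group. The cause of these deviations was not tested.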

How the results depend on the processing

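All 43 genes kept a training change above 0 in the mean of both sexes under every scaling, filter and tool tried and with each library left out, with medians from 0.16 to 0.23 with single libraries left out. With DESeq2, 24 genes of all tested were called for training in females, 5 in males, 24 in the mean and 1 for the interaction, and 1465 and 1401 for sex without and with training. With DESeq2, 1 of the 43 was called for mean training (Atpif1) and 1 for sex without training (Cox6a2). Over all genes tested, 0 were called for mean training with limma-voom and 1 with no low-count filter. With only the groups compared, 448 genes were called for sex without training, and with no low-count filter 558 with training. For sex with training, 0 of the 43 were called by library size, with no filter and with only the groups compared.

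With single libraries left out, the genes called ran from 0 to 1 for training in females, 0 to 1 in males, 0 to 7 in the mean, 435 to 1038 for sex without training and 494 to 1239 with training. The count of the 43 called for sex ran from 0 to 1 without training and from 0 to 1 with training. The count with a smaller male training change ran from 15 to 37. The log2 ratio Cox6a2/Cox6a1 ran from -0.080 to 0.20 for training in females, from -0.11 to 0.035 in the mean, and from -0.54 to -0.39 for sex. The sex difference of Cox7a1/Cox7a2 ran from -0.047 to 0.045. The causes were not tested.

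Without the 4 libraries together, 1 gene was called for training in males, 0 in the mean and 321 for sex with training. The 43 genes then gave 23 calls for sex without training and 0 with training (median -0.022), and 2 with a smaller male training change (median difference 0.21). The choice of these libraries sets those directions. The training change of Cox6a2/Cox6a1 in females turned to -0.084, and its sex difference of -0.485 had an adjusted p of 0.093. No paired analysis was possible because the replicate numbers follow accession order and link no samples across groups. In simulated libraries of the female comparison, 44.2% of genes changed 1.5-fold and 61.1% of genes changed 2-fold were recovered. Both folds are larger than the median training change of the 43 genes in females, 16.9%, so recovery at that size was not simulated.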
